A study of Mus musculus with 10 samples.

Results

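The genes described here are 10 imprinted genes of growth and of muscle noncoding RNA: H19, Meg3, Rian, Mirg, Dlk1, Peg3, Grb10, Mest, Cdkn1c and Plagl1. Their probes were taken as all non-control spots whose gene name in the scanner files equals one of these symbols. That gave 26 probes for 9 of the 10 genes, out of 55681 different probes on the array, and Rian had none. Of the 26 probes, 11 passed the filter on dim signal, out of 17455 on the whole array, and they belong to 4 genes, H19, Mest, Peg3 and Plagl1.

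The data come from C2C12 cells, a mouse line of skeletal muscle precursors (myoblasts) that can fuse into muscle fibres in culture. One group received a synthetic miR-142-3p (mirVana mimic) and the other a scrambled RNA, each at 150 nM with a lipid transfection reagent. RNA was taken after 72 h, the submitters put the transfection efficiency at about 60%, and 150 ng of RNA was labelled with Cy3 for a 1-colour Agilent array. The labels name 6 mimic and 4 scramble replicates, which the submitters' design text calls independent transfections. All cells are one established line, both groups went through the same lipid transfection, and untransfected cells were not analysed here.

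The file headers place the 10 scans on 1 slide at 5 array positions, each scanned on 2 days, so both scans of each position were combined, which leaves n = 3 mimic arrays and n = 2 scramble arrays. Scans of the same position shared 21 to 77 spots marked as non-uniform, while scans of different positions shared 0 to 2. Their correlation over 12637 probes separated them less clearly, with r of 0.989 to 0.992 within a position and 0.902 to 0.990 between positions. P-values below thus reflect how far these 5 arrays scatter, part of which may be technical. All 4 scramble titles and no mimic title carry a re-analysis tag, without saying what was redone, so that tag and the group cannot be told apart. Each scan holds 59305 non-control spots, and 25.4% to 34.6% of them gave signal that the scanner software marked as well above background. The number of arrays limits the precision of every value.

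An imprinted gene is read from only the copy inherited from the mother or only that from the father. Many of these genes act in opposition on fetal growth: paternally read genes such as Igf2, Mest, Peg3 and Dlk1 tend to promote growth, while maternally read genes such as Cdkn1c, Grb10 and H19 tend to restrain it. In skeletal muscle, H19 and the noncoding RNAs of the Dlk1 and Dio3 region are known for high levels in the embryo and in differentiating myoblasts, and H19 and Igf2 share enhancers on the same chromosome.

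The added RNA and the 7 H19 probes are shown first, since the H19 result rests on 6 of these probes. Probes 2 and 3 directly adjoin each other. The mature miRNA is from the RefSeq table of GRCm38.p6, with its seed, bases 2 to 8, in capitals. The probes are 60 bases long as the array design gives them, with mm9 positions from the scanner files. They are ordered in the 5′ to 3′ direction of H19 on the minus strand. They were not placed within the transcript, so its 5′ end may lie beyond probe 1. Capitals within a probe mark ACACTAC, the letters that pair with the seed.
mmu-miR-142a-3p: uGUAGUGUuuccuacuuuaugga
H19 probe 1 (chr7:149762417-149762476): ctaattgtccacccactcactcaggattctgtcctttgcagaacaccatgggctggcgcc
H19 probe 2 (chr7:149762173-149762232): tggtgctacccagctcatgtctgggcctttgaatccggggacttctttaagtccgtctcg
H19 probe 3 (chr7:149762113-149762172): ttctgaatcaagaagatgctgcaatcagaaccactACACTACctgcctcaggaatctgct
H19 probe 4 (chr7:149761957-149762016): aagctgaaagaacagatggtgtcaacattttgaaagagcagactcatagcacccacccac
H19 probe 5 (chr7:149761756-149761815): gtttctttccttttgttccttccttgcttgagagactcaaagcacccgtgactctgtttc
H19 probe 6 (chr7:149761693-149761752): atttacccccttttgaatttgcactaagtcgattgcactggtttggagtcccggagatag
H19 probe 7 (chr7:149761492-149761551): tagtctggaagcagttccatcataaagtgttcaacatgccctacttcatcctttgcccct

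ACACTAC occurred in 1 of the 26 probes, H19 probe 3, and in 0.259% of all 55681 probes. Its reverse complement occurred in 0 of the 26 and in 0.273% of all probes. A match of letters within a probe window is a description and not a site, and the windows cover only part of each transcript.

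Signal is given throughout as log2 of the scanner's processed signal minus the scan's 75th percentile over the 12637 probes that were well above background on all 10 scans. A difference is mimic minus scramble, and its test is limma's moderated test over all 17455 kept probes with Benjamini-Hochberg adjustment and a threshold of 0.05. Over all kept probes, 8.62% were called, 706 of them higher in mimic cells (4.04%) and 799 lower (4.58%). Counted by gene through the brightest probe, 8.57% of 13679 genes were called, 583 lower (4.26%) and 589 higher (4.31%), with a median difference of −0.04.

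Of the 4 imprinted growth genes that could be tested, H19, Mest and Peg3 were lower in mimic cells, none was higher, and Plagl1 did not pass the test. The count of 3 lower among 4 is given beside the 4.26% of all genes called lower, and the median difference of the 4 genes was −1.20. The genes were chosen with earlier results of these data known, so the count is a description and not a test. Plagl1, which is among the 4, passed the filter through the scramble scans. Counted by the brightest probe, only H19 passed without mimic array 3, where the second Mest probe still passed (−2.05, limma's adjusted p = 0.0253), and the count was 2 when mimic array 1, mimic array 2 or scramble array 2 was dropped. Of the 11 tested probes, 9 were lower by the test, and the arrays of the groups did not overlap at any of the 11, as they did not at 45.2% of all kept probes. In a bulk culture, fewer cells that hold an RNA and less of it per cell cannot be told apart.

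**Figure D1:**
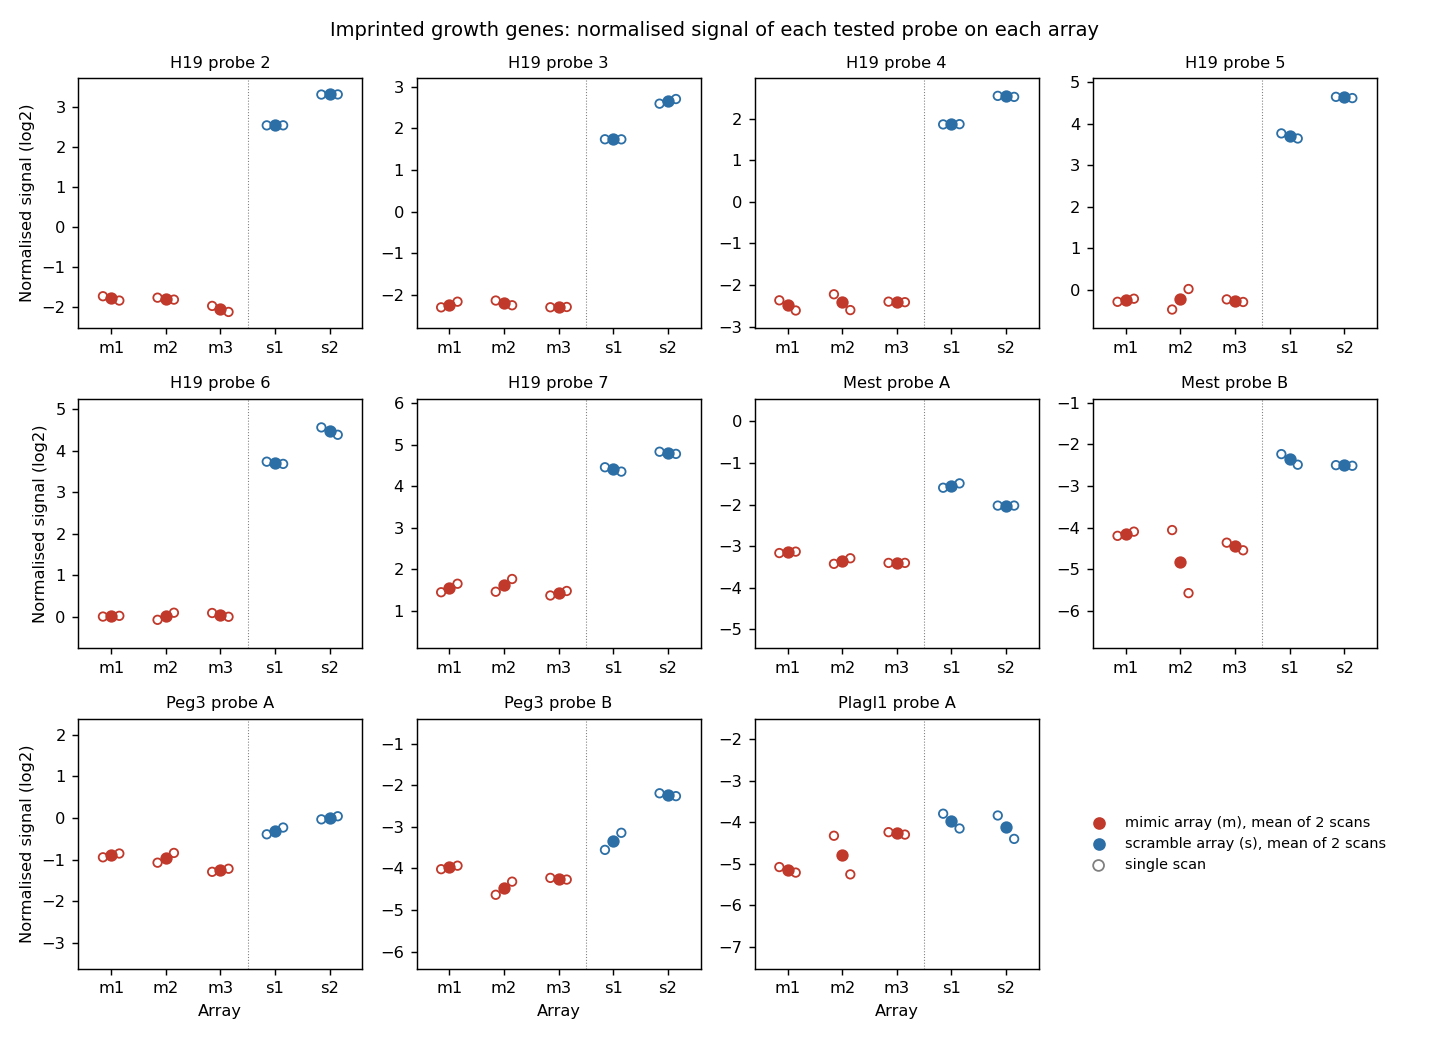
Normalised signal (log2, vertical axis) of the 11 tested probes on the 3 mimic arrays (m1 to m3, red) and the 2 scramble arrays (s1 and s2, blue); open points are single scans and filled points the mean of an array's 2 scans. All 6 H19 panels show the mimic arrays more than 2.7 log2 units below the scramble arrays, while in the Plagl1 panel mimic array 3 lies just under the scramble arrays.

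H19, a maternally read long noncoding RNA that also carries the precursor of miR-675, showed the largest falls of the group. The brightest of its probes, probe 7, had normalised levels of 1.55, 1.62 and 1.43 on the mimic arrays, against 4.40 and 4.80 on the scramble arrays. The difference was −3.07 ± 0.19 (SE), an 8.41-fold lower signal, with limma's adjusted p of 0.000495. The 3 mimic arrays lay within 0.19 of each other, and the lowest scramble array was far above the highest mimic array.

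Probe 2 of H19 had levels of −1.78, −1.79 and −2.05 on the mimic arrays, against 2.54 and 3.31 on the scramble arrays, a difference of −4.80 ± 0.26 (SE) or 27.9-fold lower with limma's adjusted p of 0.000369. Probe 3, which holds the seed match, had −2.23, −2.20 and −2.30 on the mimic arrays, against 1.74 and 2.65 on the scramble arrays, or 21.7-fold lower. The groups were fully apart at both probes. Probes 4, 5 and 6 were 24.9-fold, 21.3-fold and 16.7-fold lower, and limma's adjusted p lay between 0.000318 and 0.000534 at all 6 tested probes. None of the 6 was near the detection limit: on the linear scale, probe 7 read 7047 to 9151 over the mimic scans and 47783 to 64651 over the scramble scans, and probe 4 read 373.1 to 669.4 over the mimic scans and 8540 to 13293 over the scramble scans.

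**Figure D2:**
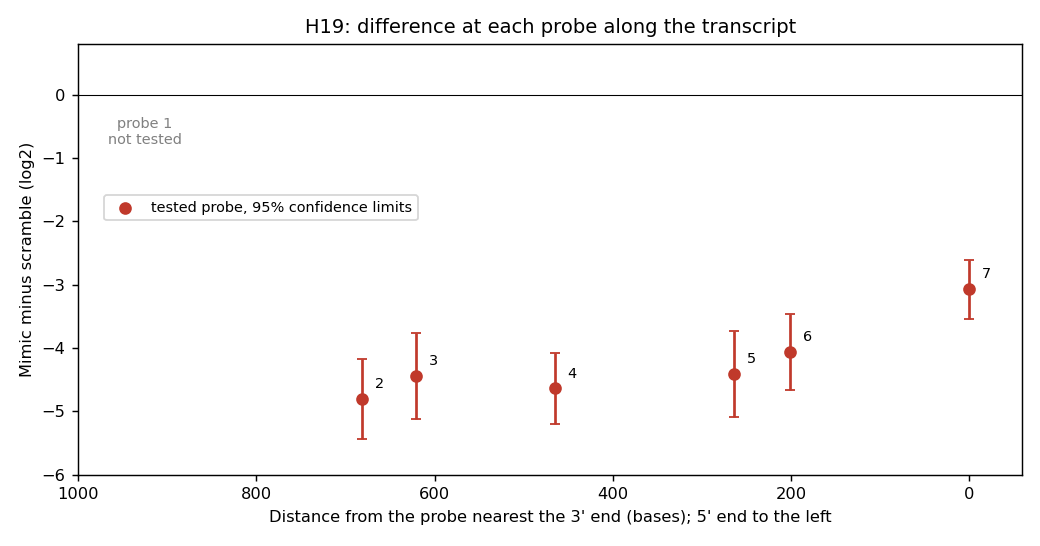
Difference between mimic and scramble arrays (log2, vertical axis) at each H19 probe against its distance in bases from the probe nearest the 3′ end (horizontal axis, 5′ end to the left); bars are 95% confidence limits from limma. The differences run from −4.80 at probe 2 to −3.07 at probe 7, and probe 1 was not tested.

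The fitted fall differed between the probes. Among the 6 tested probes it was smallest at probe 7, nearest the 3′ end, with 95% limits of −3.54 to −2.61, and the limits of probes 2, 4, 5 and 3 all lay below −3.7. Probe 6, which starts 201 bases from probe 7, had limits of −4.66 to −3.46 that touch those of probe 7. Probe 7 is also the brightest of the 6, at 47783 to 64651 on the linear scale over the scramble scans. The difference between probes was not tested, nor was the part that brightness has in it. The 7 probes read one transcript from the same arrays, so they are repeated readings of H19 and not replicates.

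Probe 1, the most 5′ of the 7 probes, exceeded background on 0 of 6 mimic scans and 1 of 4 scramble scans, so it was not tested and no fold is given. Its array levels were −7.69, −6.57 and −7.77 for mimic, against −5.45 and −4.67 for scramble, most of them readings at background.

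The 2 scramble arrays differed in H19: scramble array 2 was above scramble array 1 at all 6 tested probes, by 0.40 to 0.93, while the mimic arrays spanned 0.03 to 0.26. The result holds against either array alone. With only scramble array 1 in its group, limma gave a difference at probe 7 of −2.87, and with only scramble array 2 it was −3.27, both with adjusted p of at most 0.00327; a lone array was assumed to vary like the others. On the scans of the first day the difference at probe 7 was −3.21, and on those of the second day −2.93. Of the 12637 probes above background on all scans, ordered from the largest fall, the 6 H19 probes took places 5, 6, 8, 10, 14 and 27, as a description only. This order leaves out probes at background on any scan. Among these are Myog (−7.21), Casq2 (−5.50), Tnni1 (−5.39) and Tnnc1 (−5.27), whose fitted falls were larger than that of any H19 probe.

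Igf2 encodes a paternally read fetal growth factor and lies next to H19 with no coding gene between them in the RefSeq table. Its single probe had levels of −5.07, −6.73 and −7.11 on the mimic arrays, against −2.95 and −1.93 on the scramble arrays. The probe exceeded background on only 1 of 6 mimic scans, against 4 of 4 scramble scans, so it passed the filter through the scramble scans and its mimic level is mostly a reading of background. Each mimic array was raised to the lowest level that passed as above background there, where its own level was under that. This gives a signal at least 6.73-fold lower in mimic cells. Folds written "at least" below were obtained the same way, and all hold only for the scanner's background correction. The fitted difference was −3.86 with limma's adjusted p of 0.0158. With another background correction it was −2.16, a smaller fall than the bound. Without mimic array 3 the fitted difference was −3.46 (limma's adjusted p = 0.0528), without scramble array 2 it was −3.35 (0.0899), and without mimic array 1 it was −4.48 (0.00472). Igf2r, the maternally read receptor that clears this factor, was not called: its level was −0.56, −0.69 and −0.71 on the mimic arrays and −0.38 and −0.64 on the scramble arrays, a difference of −0.14 with 95% limits of −0.56 to 0.28.

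Mest, also called Peg1, is a paternally read gene for a membrane enzyme of the hydrolase family, and an intron of it carries miR-335. It has 3 probes, called A, B and C here, on mm9 chromosome 6. Probe A (chr6:30698279-30698338), printed in 10 spots on every array, had levels of −3.15, −3.36 and −3.40 on the mimic arrays, against −1.54 and −2.02 on the scramble arrays. It was 2.87-fold lower in mimic cells, with a difference of −1.52 ± 0.21 (SE) and limma's adjusted p of 0.00853. The mimic arrays were all below both scramble arrays, and the SD over the 10 spots of a scan was 0.05 to 0.24 on the log2 scale.

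Probe B of Mest (chr6:30697385-30697444) had levels of −4.15, −4.82 and −4.45 on the mimic arrays, against −2.36 and −2.51 on the scramble arrays. The difference was −2.04 ± 0.23 (SE), 4.11-fold lower, with limma's adjusted p of 0.00401. It passed as above background on 4 of 6 mimic and 4 of 4 scramble scans, and the 2 scans of mimic array 2 differed by 1.52. The size of the fall depends on the background correction. With another one the difference was −1.23 at probe B and −1.17 at probe A. Probe C passed on 0 of 6 mimic and 2 of 4 scramble scans and was not tested, with levels of −6.50, −6.93 and −6.28 on the mimic arrays and −5.38 and −4.30 on the scramble arrays. All 3 probes had lower values on every mimic array than on any scramble array, so they did not disagree in sign. For probe A, the test was lost without mimic array 3 (−1.47, adjusted p = 0.0525), when each scan was scaled to its median (−1.30, 0.0685) and without the filter (0.0798).

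Peg3 encodes a paternally read zinc finger protein found in muscle and brain. Its brightest probe, A (mm9 chr7:6658774-6658833), had levels of −0.90, −0.96 and −1.26 on the mimic arrays, against −0.31 and 0.00 on the scramble arrays. The difference was −0.89 ± 0.20 (SE), 1.85-fold lower, with limma's adjusted p of 0.0469. The arrays did not overlap, but the value lay close to the threshold, and in 10 of 21 other settings it did not pass. Among these were leaving out any 1 of the 3 mimic arrays (−0.95, −0.93 and −0.78 without arrays 1, 2 and 3) or scramble array 2 (−0.73), with adjusted p of 0.117 to 0.169.

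Probe B of Peg3 (mm9 chr7:6661407-6661466) had levels of −3.98, −4.48 and −4.25 on the mimic arrays, against −3.35 and −2.23 on the scramble arrays. Its difference of −1.45 ± 0.35 (SE) missed the threshold, with limma's adjusted p of 0.0554, and it passed in 10 of 19 other settings. The scramble arrays stood far from each other here: the difference was −2.01 without scramble array 1 and −0.88 without scramble array 2. The sign was the same for both Peg3 probes in every setting tried, though several settings leave the difference itself unchanged.

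Plagl1, also called Zac1, encodes a paternally read zinc finger transcription factor. Only 1 of its 4 probes was tested (mm9 chr10:12848421-12848480), with levels of −5.14, −4.79 and −4.27 on the mimic arrays and −3.97 and −4.12 on the scramble arrays. The difference was −0.69 ± 0.28 (SE), with limma's adjusted p of 0.177 and an unadjusted p of 0.0440. Its 95% limits of −1.35 to −0.03 leave room for a fall of more than 2-fold and for almost none. The probe was above background on 3 of 6 mimic and 4 of 4 scramble scans, so it passed the filter through the scramble scans. The scans of one array differed by up to 0.93. The other 3 Plagl1 probes were at background and not tested: B (mm9 chr10:12848851-12848910) and D (mm9 chr10:12851280-12851339) passed on 0 of 10 scans, and C (mm9 chr10:12850832-12850891) on 1 mimic scan. Probe B had levels of −5.35, −5.84 and −5.51 on the mimic arrays and −5.94 and −5.76 on the scramble arrays. Probe C had −5.74, −6.18 and −6.04 on the mimic arrays and −6.80 and −5.41 on the scramble arrays. Probe D had −7.52, −6.92 and −7.63 on the mimic arrays and −7.28 and −5.51 on the scramble arrays, so the groups overlapped at all 3 probes.

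**Figure D3:**
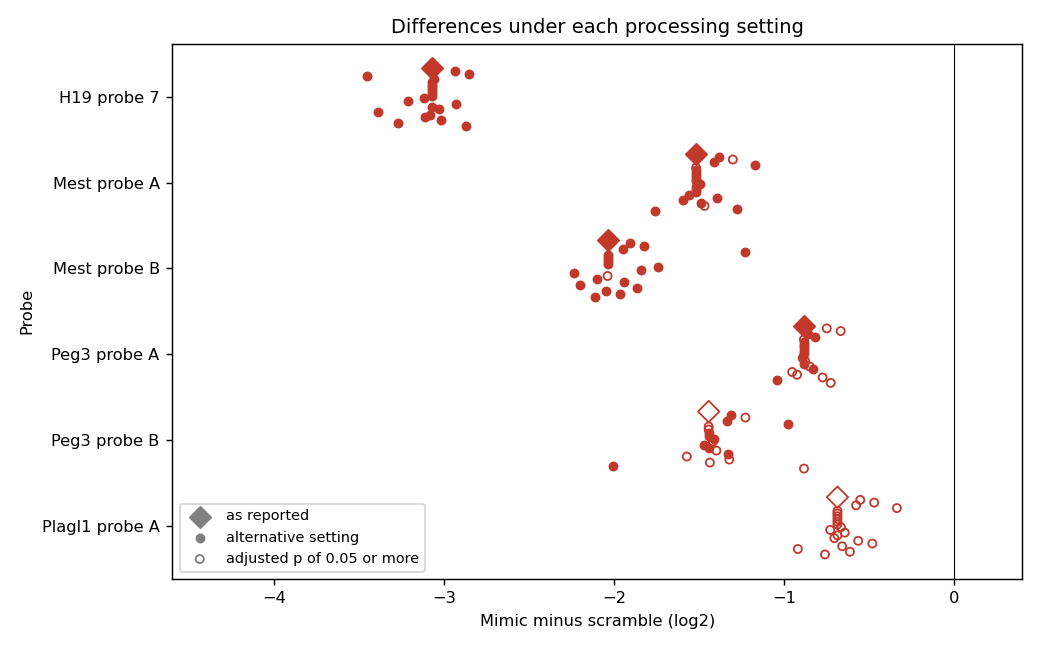
Difference between mimic and scramble (log2, horizontal axis) for the brightest H19 probe and the tested Mest, Peg3 and Plagl1 probes under every processing setting; diamonds are the values as reported, circles the alternatives, and open symbols an adjusted p of 0.05 or more. H19 probe 7 stayed between −3.46 and −2.86 and was always called, Peg3 probe A was open in 10 of 21 alternatives, and Plagl1 was open in all 21.

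The remaining growth restrainers were too dim for a test. Cdkn1c, a maternally read inhibitor of cyclin-dependent kinases that takes part in the cell cycle exit of myoblasts, has 1 probe (mm9 chr7:150644753-150644812). It exceeded background on 0 of 6 mimic and 2 of 4 scramble scans. Levels were −6.57, −6.54 and −6.52 on the mimic arrays, against −4.55 and −4.99 on the scramble arrays. The mimic arrays were all lower, but with background readings in both groups no fold is given. Grb10, an adaptor that dampens insulin and IGF receptor signalling, has 1 probe, which was above background on 0 of 10 scans, so no fold is given.

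The genes of the Dlk1 and Dio3 region on chromosome 12 gave no signal to compare. Dlk1, a paternally read membrane protein of the Notch ligand type, has 2 probes, and the maternally read noncoding RNAs Meg3 and Mirg have 3 each, Mirg being the host of a large miRNA cluster. None of these 8 probes was well above background on any of the 10 scans. Their array levels ran from −7.64 to −5.46 in mimic cells and from −7.28 to −6.20 in scramble cells. At this sensitivity neither presence nor a difference was detectable. Rian, the maternally read host of a cluster of small nucleolar RNAs in the same region, was not measured by any probe of that name.

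**Figure D4:**
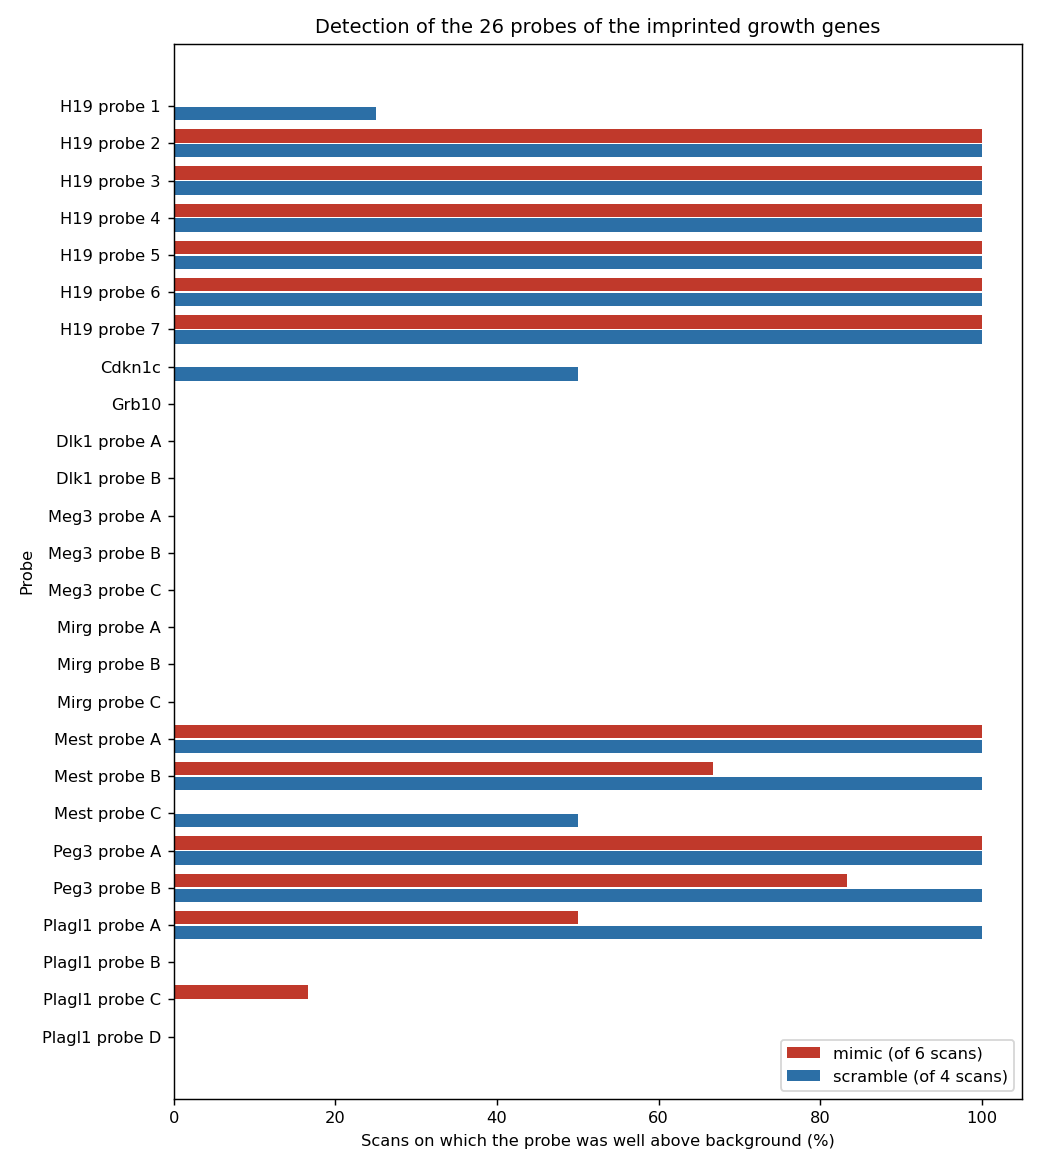
Percentage of scans (horizontal axis) on which each of the 26 probes was well above background, for the 6 mimic scans (red) and the 4 scramble scans (blue). H19 probes 2 to 7, Mest probe A and Peg3 probe A reach 100% in both groups, and the 8 Dlk1, Meg3 and Mirg probes and the Grb10 probe have no bar.

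To set these genes among other imprinted genes, 55 further mouse genes known to be imprinted were listed, of which 54 are on the array and 24 could be tested. Of the 24, Ddc, Zim1, Gatm and Igf2 were lower, Slc22a18 was higher, and 19 did not pass. Their median difference was −0.15, against −0.04 for all 13679 genes and −1.20 for the 4 growth genes, and 4.26% of all genes were lower and 4.31% higher. The counts of the 24 cannot be read against these shares, because Ddc, Igf2 and Zim1 passed the filter through the scramble scans and Slc22a18 through the mimic scans. This list, too, was chosen with earlier results of these data known. With only probes above background on all scans, limma called 1 of 19 lower and 0 higher, and at an unadjusted p below 0.05 2 were lower and 1 higher. Without mimic array 3, 2 of the 24 were lower. A gene is counted here by its brightest probe, and 1 of the 19 not called, Cobl, has a second probe that was lower.

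Ddc, which encodes the enzyme that makes dopamine and serotonin from their precursors, lies next to Grb10 with no coding gene between. Its levels were −6.76, −5.84 and −6.57 on the mimic arrays, against −2.52 and −2.86 on the scramble arrays. It was above background on 0 of 6 mimic and 4 of 4 scramble scans, so the signal was at least 6.36-fold lower in mimic cells (limma's adjusted p = 0.00109). A second Ddc probe was above background on no scan.

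Zim1, a maternally read zinc finger gene, lies next to Peg3. Its brighter probe had levels of −5.77, −5.10 and −5.05 on the mimic arrays, against −3.48 and −3.09 on the scramble arrays, and was above background on 2 of 6 mimic and 4 of 4 scramble scans. Its signal was at least 3.56-fold lower in mimic cells, with limma's adjusted p of 0.00803. Its second probe was above background on 0 mimic and 4 scramble scans, and at least 2.69-fold lower (limma's adjusted p = 0.000952).

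Slc22a18, a maternally read membrane transporter next to Cdkn1c, moved the other way. Its levels were −3.30, −3.66 and −3.62 on the mimic arrays, against −5.18 and −5.34 on the scramble arrays, and the probe was above background on 6 of 6 mimic and 1 of 4 scramble scans. Its signal was at least 2.74-fold higher in mimic cells, with limma's adjusted p of 0.00330. Gatm, the first enzyme of creatine synthesis, had levels of −1.89, −2.33 and −1.98 on the mimic arrays, against −0.57 and −0.87 on the scramble arrays, and was 2.55-fold lower with limma's adjusted p of 0.0138. Its call was lost without mimic array 3 (adjusted p = 0.0620), with each scan scaled to its median (−1.13, 0.159) and without the filter (0.133).

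**Figure D5:**
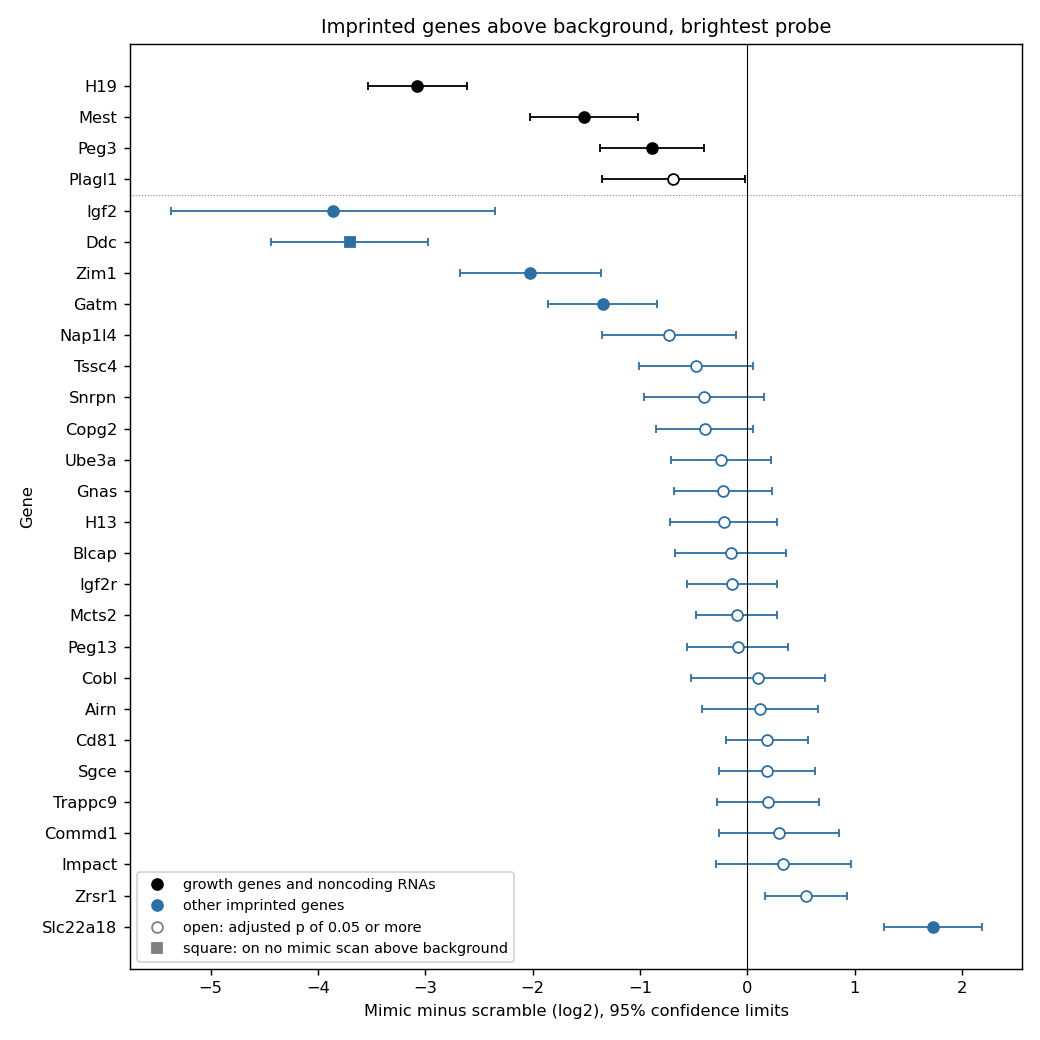
Difference between mimic and scramble (log2, horizontal axis, bars are 95% confidence limits from limma) for the brightest tested probe of the 4 growth genes (black) and 24 other imprinted genes (blue). Filled symbols passed the test; Ddc, drawn as a square, was above background on no mimic scan, so its fitted value is no measured fold.

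Neighbours did not all move together. At the H19 end of chromosome 7, H19 and Igf2 were both lower. Around Cdkn1c, Slc22a18 was higher, Nap1l4 (−0.73, adjusted p = 0.141) and Tssc4 (−0.48, 0.226) were not called, and no Kcnq1ot1, Kcnq1 or Phlda2 probe passed the filter. Peg3 and Zim1 were lower, and Usp29, also beside Peg3, did not pass the filter. Copg2, beside Mest, differed by −0.40 (0.240), and the 2 Cobl probes, beside Grb10, disagreed. The brighter one differed by 0.10 (0.836) and was above background on all scans, while the other was lower by 4.67-fold (−2.22, 0.00513) and was above background on 4 of 6 mimic and 4 of 4 scramble scans. The second probes of Copg2 (−0.11, 0.756) and Nap1l4 (−0.33, 0.267) were not called. These adjusted p-values are limma's, and the neighbours were named for their position.

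Genes of muscle differentiation, and some of the markers of the myoblast state, were lower in mimic cells too. Of 18 listed differentiation genes, 16 are on the array and 14 were tested, 11 of them were lower, beside 4.26% of all genes, and all 14 differences were negative, with a median of −4.22. Of the 11, Casq2 (0 of 6 mimic scans above background), Tnnc1 (1 of 6) and Tnni1 (3 of 6) passed the filter through the scramble scans. The count and the median include them. The list was chosen with earlier results of these data known, so its count is a description and not a test. Myogenin (Myog), the factor that starts terminal differentiation, was 148-fold lower, cardiac actin (Actc1) 45.5-fold and embryonic myosin (Myh3) 36.7-fold lower, with limma's adjusted p of 0.000164 to 0.000240. The Myog fold is imprecise, because its mimic signal was close to background, above it on 5 of 6 mimic scans. With another background correction its difference was −6.08, against −7.21 as reported. Creatine kinase (Ckm) was not called at −0.73 (limma's adjusted p = 0.0703). Of the 6 myoblast markers, 5 were above background on all scans of both groups, which fits the label, while Myf5 passed on 3 mimic and 0 scramble scans and was not tested. Of the 5 tested, Myod1, Des, Cdh15 and Itga7 were lower, Myod1 by 10.4-fold (limma's adjusted p = 0.00168), and Vim was not called at 0.06 (0.864). The summed level of the 6 myoblast markers was 3.65 to 3.88 on the mimic arrays and 4.47 to 4.88 on the scramble arrays. The part that the state of the muscle programme has in the falls of H19, Mest and Peg3 was not tested.

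Markers of other cell types were mostly at background. All 4 epithelial markers (Epcam, Cdh1, Krt14 and Krt5) were above background on no scan, as were 4 of 5 adipocyte, 3 of 5 leukocyte, 3 of 4 endothelial and 3 of 5 osteoblast markers, among them Adipoq, Ptprc, Pecam1 and Sp7. Itgam and Csf1r of the leukocyte list and Kdr of the endothelial list were above background on all scans, each by only 1 of its probes. The second Kdr probe, printed in 10 spots, was above background on no scan, as was 1 further probe each of Itgam and Csf1r. The summed level of the leukocyte list was −0.14 to 0.20 on the mimic arrays and −0.02 to 0.15 on the scramble arrays. The endothelial list summed to −2.33 to −2.07 on the mimic arrays and −2.47 to −2.33 on the scramble arrays. The osteoblast list summed to −4.42 to −3.96 on the mimic arrays and −4.34 to −0.68 on the scramble arrays. Its highest value came from 1 Runx2 probe, at −0.77 on scramble array 2 and −6.86 on scramble array 1, and 1 Itgam probe likewise stood at −0.37 on scramble array 2 and −7.12 on scramble array 1. The adipocyte list summed to −4.03 to −3.85 on the mimic arrays and −4.22 to −3.66 on the scramble arrays, and the epithelial list to −5.19 to −4.64 on the mimic arrays and −5.01 to −4.79 on the scramble arrays.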

How the data were processed

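Each deposited scanner file holds 1 intensity per spot on a linear scale, the processed signal, which Agilent Feature Extraction 12.0.0.7 had corrected for background, per the file headers. Version 10.7.3.1 is the one given in the submitters' processing notes. The series matrix the authors deposited holds intensities of the same scans and was used as an alternative, and the direction and steps of any rescaling between arrays are not given in the sources used here.

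Control spots were left out. Spots marked as outliers were left out too, except where a probe had no other spot on that scan. Every member probe but Mest probe A has 1 spot, so leaving out outliers could not act on its own signal. Spots of 1 probe were averaged. The log2 of the deposited intensities was scaled to the 75th percentile of those probes that exceeded background on every scan, because fewer than 0.5 of the spots of any scan did. A probe was kept when well above background on at least 4 of 10 scans, counting as such with at least 0.5 of its spots. The brightest kept probe stood for a gene. Scans of an array position were averaged. Mimic array 1 holds replicates 1 and 4, array 2 replicates 2 and 5, and array 3 replicates 3 and 6. Scramble array 1 holds replicates 1 and 3, and array 2 replicates 2 and 4. Groups were fitted in limma 3.58.1 (lmFit, then eBayes) under R 4.3.3, with 3 residual degrees of freedom and a prior of 3.46. The procedure was run on simulated data with independent noise of the fitted size and no background floor. That run does not cover probes near background.

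An "at least" fold divides the brighter group's mean by a floor for the dimmer group: on each array the lowest level above background, or the probe's own level where that is higher, averaged over arrays. Its use for the partly detected Zim1, Igf2 and Slc22a18 probes was chosen after values were seen. The floor is the lowest such level, so some brighter readings were not marked as above background. With another background correction the fitted differences were −2.16 for Igf2, −1.85 for Ddc, −0.98 for the brighter Zim1 probe and 0.96 for Slc22a18. All 4 are smaller than the stated folds, which are therefore no bound under other background corrections. No member probe was saturated. Bounds and tests cover these arrays only, and their number limits the precision. A marker list's summed level is log2 of the sum of its genes' scaled intensities. Same-numbered replicates deviated together at −0.23 to 0.14, and 0 of 4 scramble scans correlated best with their own number, so the numbers were not taken as pairs.

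Named are every member, with its probes, up to 6 called genes per direction of the other imprinted genes, Igf2 and Igf2r, 4 differentiation genes, Myod1 and markers near background. Nap1l4, Tssc4, Copg2 and Cobl and the other neighbours were added for their position, and Des, Cdh15, Itga7, Vim, Casq2, Tnnc1 and Tnni1 beside their lists' counts, after values were seen. The members and lists were chosen with earlier results of these data known. The alternatives changed scaling, background, filter, outlier spots, variance model, summary of probes, replicate unit, scan day, slide row, source of values and the arrays included.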

Additional observations from a re-analysis of the deposited data

How the results depend on the processing

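No tested probe of H19, Mest, Peg3 or Plagl1 changed sign under any alternative. In several of these the difference is the same by construction, so only the test could change. Those include no filter, the other variance model and the 10 scans as separate samples. All 6 H19 probes kept their call in every alternative (21 for probe 7, 19 for the others), and the mean of the 6 gave −4.24. Mest probe A lost it in 3 of 21, Mest probe B in 1 of 19 (scan day blocked with a random array effect, −2.04, adjusted p = 0.0577) and Peg3 probe A in 10 of 21. Among these 10 were the 75th percentile over all probes (−0.75, 0.0682), the scan median (−0.67, 0.644), no filter (0.407), slide row as a block (−0.85, 0.0817) and either scan day alone (0.0521 and 0.0683). Peg3 probe B gained its call in 10 of 19. Igf2r reversed to 0.0744 with each scan scaled to its median, which raises the median of all probes by 0.22 above the reported scaling, while the percentile over all probes raises it by 0.13. The cause was not tested.

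Scaling to the median called 536 probes higher and 359 lower, beside 706 and 799 as reported, and 1 growth gene lower. Scaling to the percentile over all probes called 813 and 633. Without a filter 208 and 302 of 55681 probes were called. With probes above background on all scans, 0 other imprinted genes were higher and 1 lower. Treating the 10 scans as separate samples called 2454 and 3431 probes, with a replicate block on the number in the labels 1251 and 1526, and with scan day blocked and array as a random effect 1087 and 1280. Each of these 3 fits called 2 other imprinted genes higher, where 1 was reported. Leaving out each array in turn gave 248 to 2013 probes higher and 307 to 2997 lower, 1 to 3 growth genes lower and 2 to 5 other imprinted genes lower. The highest of these counts came without scramble array 1 and the lowest of the growth and other imprinted genes without mimic array 3. The 5 arrays and the signals near background in mimic cells limit what can be said of Igf2, Ddc, Zim1, Mest probe B and Plagl1. For Slc22a18 the signals near background were those of scramble cells.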
